A study of Homo sapiens with 12 samples.

Results

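The 6 libraries that carry replicate number 1 or 2 were compared among the 12 RNA-sequencing libraries of MOLM13 cells in this series. They comprise 3 libraries of number 1 (sgRNA1, sgRNA2 and control) and 3 of number 2 (sgRNA1, sgRNA2 and control), and each number 1 library was paired with the number 2 library of its own guide group. The libraries were taken by the number in their labels alone. Of 19755 protein-coding genes, the 10982 with a mean rlog of at least 4 over the 12 libraries were tested. Members of a gene list are called measured below where they were among the genes tested. An rlog value is a regularized log2 expression level, so a difference of 1 is a doubling before shrinkage. MOLM13 is an established human acute myeloid leukemia (AML) line with a KMT2A fusion and monocytic features. All cells stably expressed Cas9, were selected with 5 µg/ml blasticidin and 1 µg/ml puromycin, were sorted for high red fluorescence of the guide vector and were harvested on day 7. The guides sgRNA1 and sgRNA2 target YBX1, which encodes an mRNA-binding protein with a cold-shock domain. The control carried no YBX1 guide, and its labels call it a non-targeting guide in one place and an empty vector in another. The labels do not say what a replicate number stands for or whether equal numbers shared a culture, so p-values measure only the spread between these libraries, which may be technical.

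Transcripts of a cell line follow the state of its culture as well as its genotype. Hypoxia-inducible factors are stabilized when oxygen is scarce and induce glycolytic enzymes and the mitophagy gene BNIP3, while ATF4 is translated when amino acids are short and induces serine synthesis, amino acid transport and tRNA charging. The tumor suppressor p53 induces the cell cycle inhibitor CDKN1A, and the transcripts of cyclin B and its partners accumulate in cells that approach division.

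YBX1 (chr1:42682427-42702349, plus strand, GRCh38) was examined first, since the guides target it. It measured 11.20 rlog with sgRNA1, 11.93 with sgRNA2 and 12.91 in control among the number 1 libraries, and 11.38, 12.07 and 12.96 in the same order among the number 2 libraries. In numbers 3 and 4 it measured 11.08 and 11.09 with sgRNA1, 11.83 and 11.89 with sgRNA2, and 12.76 and 12.81 in control. Every guide library thus lay below every control library, in the direction of the labels. The median level over the tested genes lay between 8.68 and 8.704 rlog in all 12 libraries, and the depth of the libraries is unknown. The sgRNA2 library of number 3 stood apart from the others of its number: over genes, its difference from number 4 correlated at -0.22 with that of the control pair and at -0.02 with that of the sgRNA1 pair, while the control and sgRNA1 pairs correlated at 0.46. Its median absolute difference from its number 4 partner was 0.0454, against 0.0791 in the sgRNA1 pair and 0.0926 in the control pair. Of 16 markers listed for this line, 14 were measured, all with a mean of at least 4 rlog, and their summed level was 14.40 to 14.45 on the log2 scale in number 1 and 14.31 to 14.41 in number 2. Markers of other lineages above that level were few: 2 of 11 for T and NK lymphocytes (NCAM1 and NKG7, with the CD3 genes below it), 2 of 7 for B lymphocytes, 1 of 8 for erythroid cells, 3 of 7 for megakaryocytes, 2 of 8 for epithelial cells and 0 of 7 for fibroblasts. The summed level of the T and NK list was 10.73 to 10.78 in number 1 and 10.77 to 10.82 in number 2, that of the B list 9.18 to 9.46 and 9.36 to 9.51, and that of the epithelial list 8.15 to 8.20 and 8.14 to 8.22.

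Number 1 and number 2 differed in the expression of many genes by small amounts. In the paired comparison 2251 genes (20.5% of those tested) passed an adjusted p of 0.05 (limma, Benjamini-Hochberg), of which 1260 (11.5%) were higher and 991 (9.02%) lower in number 1. The median absolute difference of these genes was 0.17 log2, and 7 of them differed by more than 1.5-fold, 5 higher and 2 lower. The shares of 11.5% and 9.02% over all genes are the background for the counts of each list below. The direction was the same in all 3 pairs for 96.5% of the genes that passed and for 50.4% of all genes. Genes passed on the mean of these same 3 pairs, so the first share is largely set by the selection and is no separate evidence. Over the 6 libraries the number accounted for 45.3% of the variance, the guide group for 35.2% and 19.4% was left. These shares rest on 1 degree of freedom for the number, 2 for the guide group and 2 for the rest. They are therefore not comparable as sizes of effect. The median absolute difference over all genes was 0.063 between numbers 1 and 2, 0.0473 between numbers 3 and 4, and 0.094 to 0.111 between a number of the first pair and one of the second. The significance rests on a spread borrowed from other genes, since 3 pairs leave 2 residual degrees of freedom: with the spread of each gene alone, 0 genes passed in limma (1827 at an unadjusted p below 0.05). The count was 1489 without the sgRNA1 pair, 1048 without the sgRNA2 pair, 903 in a fit of all 12 libraries and 729 without pairing. The share of higher genes among those that passed was 56.0%, against 48.1% after quantile scaling, 44.7% after median centring and 38.5% after centring within bins of GC content.

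EPHB2, an ephrin receptor tyrosine kinase on chromosome 1 (22710839 to 22921500, plus strand), was the gene with the largest increase. It measured 6.50 rlog with sgRNA1, 6.44 with sgRNA2 and 6.41 in control in number 1, against 5.52, 5.76 and 5.53 in number 2. Numbers 1 and 2 did not overlap, and the difference was 0.85 (SE 0.057, adjusted p = 2.43e-24 in limma), or 1.80-fold. Genes were named for a large difference in these same values, so a lack of overlap, here and below, adds no support. Its share over all genes was not counted. In numbers 3 and 4 EPHB2 averaged 5.59 rlog, at the level of number 2. Of the other leading genes, ALDH1A3, which makes retinoic acid, was higher by 0.63, and DHRS9, a dehydrogenase that acts on retinol, by 0.54. CHRNA6, a nicotinic receptor subunit, was higher by 0.67, C3, the central complement component, by 0.58, and GPR183, a receptor for oxysterols, by 0.46. IL7R, a cytokine receptor chain, measured 6.99, 7.07 and 6.93 rlog in the sgRNA1, sgRNA2 and control libraries of number 1, against 6.39, 6.43 and 6.62 in those of number 2. SAMD11 (0.66), FGL2, a fibrinogen-like protein of macrophages (0.58), and ARHGAP31, a GTPase-activating protein (0.46), were higher as well.

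**Figure D1:**
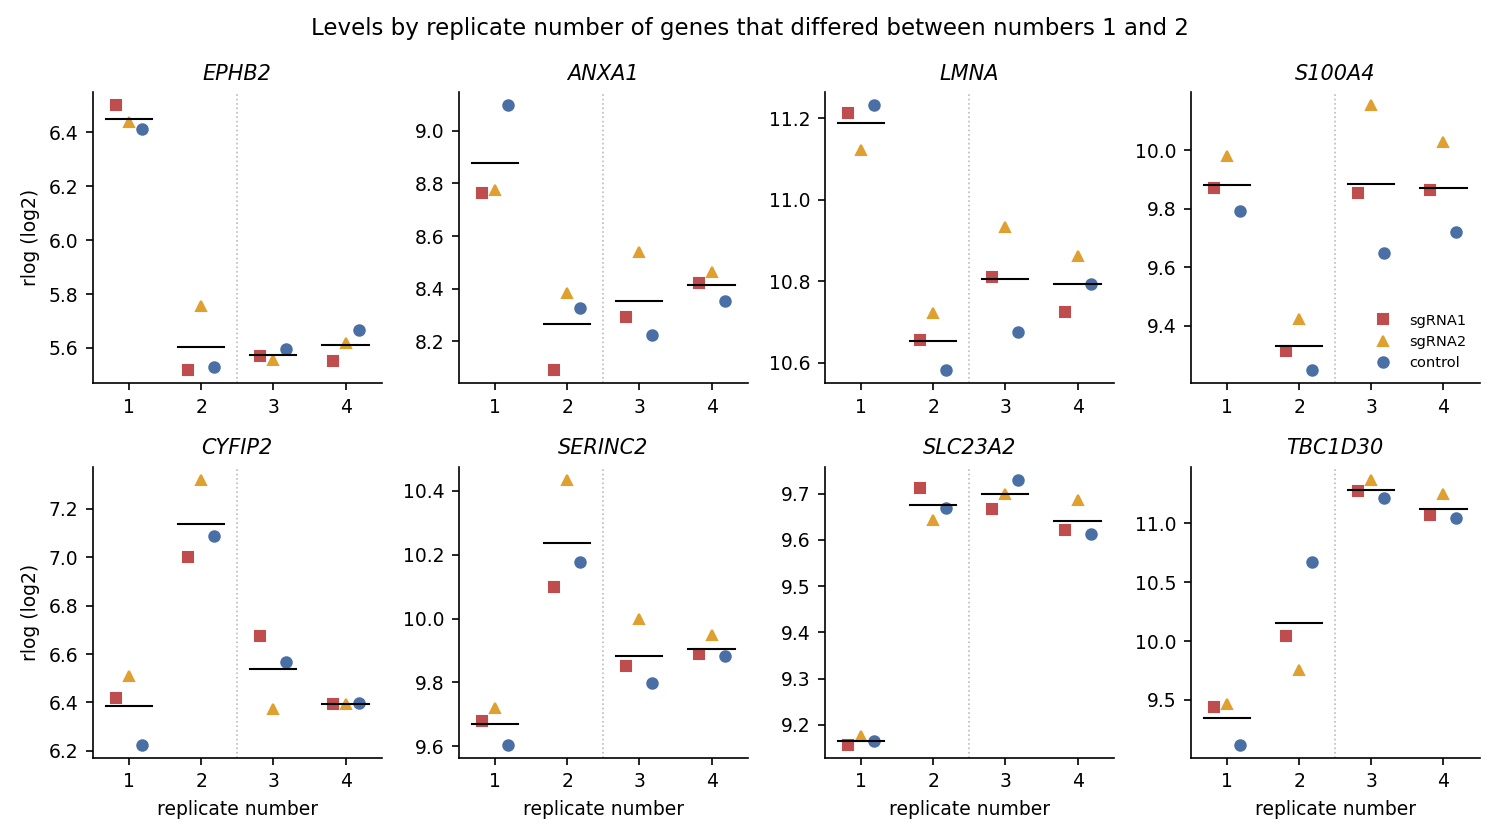
Each panel plots the rlog level (log2) of 1 gene in the 12 libraries by replicate number, with sgRNA1 as squares, sgRNA2 as triangles, control as circles and the mean of each number as a bar. EPHB2, ANXA1, LMNA and S100A4 lie higher in number 1 than in number 2, and CYFIP2, SERINC2, SLC23A2 and TBC1D30 lie lower, with numbers 3 and 4 at the level of number 1 for S100A4 and CYFIP2 and at that of number 2 for EPHB2 and SLC23A2.

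Several of the most increased genes belonged to cell adhesion and the cytoskeleton. Of 27 measured members of that list, 12 were higher and 2 lower in number 1, with a median difference of 0.11 against 0.012 over all genes. ANXA1, an annexin of inflammatory resolution, measured 8.76, 8.78 and 9.10 rlog in the sgRNA1, sgRNA2 and control libraries of number 1, against 8.09, 8.38 and 8.33 in number 2 (difference 0.61, SE 0.050, adjusted p = 4.86e-19 in limma). LMNA, which encodes the lamins of the nuclear envelope, measured 11.21, 11.12 and 11.23 in number 1 and 10.66, 10.72 and 10.58 in number 2, and no library of one number overlapped the other. S100A4, a calcium-binding protein of motile cells, differed by almost the same amount in each pair (0.56, 0.56 and 0.54). VIM, the intermediate filament vimentin, was higher by 0.42, ANXA2 by 0.38, PECAM1, an adhesion molecule of leukocytes, by 0.36 and S100A10, the partner of ANXA2, by 0.29. The exceptions were TUBA4A, a tubulin (-0.31), and ITGA4, the integrin chain of VLA-4 (-0.23). Against numbers 3 and 4, which averaged 9.88 rlog for S100A4 and 11.38 for VIM, number 1 did not pass in S100A4 (0.0029, adjusted p = 0.97) or VIM (0.0011, adjusted p = 0.99), while number 2 was lower in both (-0.55 and -0.42, limma adjusted p = 1.72e-08 and 6.02e-07).

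Monocyte and macrophage markers were also higher in number 1, but by different amounts in the 3 pairs. Of 35 listed markers, 13 had a mean rlog under 4 and were not tested. Of the 22 measured markers, 14 were higher and 0 lower, with a median of 0.19. The median over the list was 0.29 in the sgRNA1 pair, 0.18 in the sgRNA2 pair and 0.011 in the control pair. CSF1R, the receptor of macrophage colony-stimulating factor, measured 8.69 and 8.81 rlog with the guides and 8.44 in control in number 1, against 8.16 and 8.28 with the guides and 8.38 in control in number 2. Its control libraries thus differed by 0.05 and its guide libraries by 0.54 and 0.53. CD36, a scavenger receptor, differed in all 3 pairs (0.42, 0.35 and 0.31), as did CX3CR1, the fractalkine receptor (0.36, 0.28 and 0.25), and LGALS3, galectin-3, was higher by 0.32. ITGAX, a myeloid integrin chain (0.05), TLR4 (-0.03) and ITGB2 (-0.09) did not pass. Without the sgRNA1 pair, 8 markers were higher.

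The list of the KMT2A fusion and stem cell program held 8 higher and 0 lower genes of 20, with a median of 0.084, against 8 higher and 1 lower with a median of 0.036 after centring within bins of GC content. HOXA13 was higher by 0.30, PBX3, a partner of HOX proteins, by 0.21, HOXA10 by 0.16 and the receptor FLT3 by 0.14, while HOXA9 (0.10) and MEIS1 (0.07) did not pass. This count was 4 without the sgRNA2 pair. Granule proteins of the myeloid lineage went both ways: of 15, 2 were higher and 5 lower, and 2 lower without the sgRNA2 pair. CTSG, the protease cathepsin G, was higher by 0.22, and PRTN3, proteinase 3, was lower by 0.23 with MS4A3 lower by 0.39. In MPO, the peroxidase of the same granules, the difference was 0.06 and did not pass.

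Transcripts of G2 and mitosis were higher in number 1 with no exception in sign. All 32 measured members had a positive difference and 22 passed, with a median of 0.14, which was 0.063 in the sgRNA1 pair, 0.16 in the sgRNA2 pair and 0.19 in the control pair. Over all genes, 6063 of the 10982 tested had a positive difference. CENPA, the centromeric histone H3 variant, measured 8.03, 8.09 and 8.26 rlog in the sgRNA1, sgRNA2 and control libraries of number 1, against 7.81, 7.82 and 7.90 in those of number 2 (difference 0.28, SE 0.053, adjusted p = 1.45e-05 in limma). TTK, a kinase of the spindle checkpoint, was higher by 0.27, CCNB1, cyclin B1, by 0.24, PLK1, polo-like kinase 1, by 0.24 and AURKA, aurora kinase A, by 0.18. CDK1 (0.06) and TOP2A (0.09) did not pass. The count of passing members was 10 without the sgRNA2 pair and 9 in a fit of all 12 libraries. After centring within bins of GC content it was 17, with a median of 0.11. Replication genes did not share this direction: of 36 measured genes of S phase, 0 were higher and 8 lower, with a median of -0.05. POLA1, the catalytic subunit of the primase polymerase, was lower by 0.40, POLE, a replicative polymerase, by 0.23, and CDC45, a part of the replicative helicase, by 0.18. The median over the S phase list was positive in the control pair (0.043) and negative in the sgRNA1 (-0.12) and sgRNA2 (-0.06) pairs, and 3 genes were lower without either guide pair, against 15 without the control pair and 4 in a fit of all 12 libraries.

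The cell cycle genes homology region, TTTGAA, is a promoter motif known from mitotic genes, and it was searched on both strands in the 250 bases before the RefSeq start of each gene (GRCh38.p14). Promoters were found for 27 of the 32 members, of which 13 (48.1%) held it, against 8.28% of 9050 promoters of the genes tested. Of the 18 members that passed and had a promoter, 10 (55.6%) held it. The stretches around it in members that were higher in number 1 are shown because they share the motif close to the start. For KIF11, a spindle motor (chr10:92592880-92593129, plus strand), the whole window is given. For CENPA (chr2:26786027-26786054), PLK1 (chr16:23678849-23678876) and CCNB2, cyclin B2 (chr15:59105106-59105133), all on the plus strand, the motif lies in an exon of some transcript in GENCODE 29 and only the site is given. Capitals mark TTTGAA or, in KIF11, its reverse complement. The motif began 28 bases before the RefSeq start in KIF11, 18 in CENPA and 29 in PLK1 and CCNB2.
KIF11: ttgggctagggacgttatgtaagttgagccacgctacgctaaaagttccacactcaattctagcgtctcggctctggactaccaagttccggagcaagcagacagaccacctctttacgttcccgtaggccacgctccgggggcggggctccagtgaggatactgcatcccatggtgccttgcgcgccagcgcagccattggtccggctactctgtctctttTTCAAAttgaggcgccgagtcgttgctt
CENPA: ggagcgagcgaTTTGAAcgcgagcggcg
PLK1: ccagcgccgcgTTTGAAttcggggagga
CCNB2: gcgacgcggtaTTTGAAtcctggaacaa
A match is a description of the letters and was not tested for use.

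Genes of the amino acid response were higher in number 1. Of 28 measured ATF4 targets and related genes, 13 were higher and 2 lower, with a median of 0.14 (0.059 in the sgRNA1 pair, 0.10 in the sgRNA2 pair and 0.20 in the control pair). The count of higher members was 10, 13 and 9 without the control, sgRNA1 and sgRNA2 pairs and 10 in a fit of all 12 libraries. After centring within bins of GC content it was 10, with a median of 0.097. PHGDH, the entry enzyme of serine synthesis, measured 11.30, 11.23 and 11.38 rlog in the sgRNA1, sgRNA2 and control libraries of number 1, against 11.02, 10.96 and 10.93 in those of number 2. The numbers did not overlap, with a difference of 0.33 (SE 0.039, adjusted p = 1.94e-11 in limma). PSAT1, the next enzyme of that pathway, was higher by 0.30 and PSPH, the last one, by 0.23. SLC3A2, the heavy chain of amino acid exchangers, was higher by 0.32, its partner SLC7A5 by 0.16, and CHAC1, which degrades glutathione, by 0.44. ATF4 itself was higher by 0.14. ASNS (0.07), DDIT3 (-0.0016) and TRIB3 (0.03) did not pass. The members lower in number 1 were STC2 (-0.31), a secreted glycoprotein, and DDIT4 (-0.26), an inhibitor of mTORC1, both known to respond to low oxygen as well.

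Of 23 tRNA synthetases and their scaffold proteins of the cytosol, 10 were higher and 1, QARS (-0.17), lower, with a median of 0.084 (0.034 after centring within bins of GC content, against -0.0097 over all genes). The largest differences were those of the tryptophan enzyme WARS (0.38), the alanine enzyme AARS (0.33), the glycine enzyme GARS (0.32) and the tyrosine enzyme YARS (0.30). The amino acid response element TGATGNAA was found in 3 of 23 promoters of ATF4 list members (13.0%), against 1.37% of all. Of the 12 members that passed and had a promoter, CHAC1 alone held it (8.33%). Among these was CHAC1 (chr15:40953251-40953280, plus strand), the member with the largest increase, where it lies 209 bases before the start on the reverse strand and is shown in capitals.
CHAC1: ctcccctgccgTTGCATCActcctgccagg
Other stress genes were higher in smaller numbers. Of 21 heat shock proteins and chaperones of the cytosol, 6 were higher and 0 lower. HSPA1B, the inducible HSP70, measured 8.48, 8.29 and 8.22 rlog in number 1, against 7.87, 7.80 and 7.76 in number 2, and reads of this gene cannot be told apart with certainty from its near-identical copy HSPA1A. DNAJA1, a co-chaperone, was higher by 0.28 and HSPA8, the constitutive HSC70, by 0.27. Of 23 genes of the unfolded protein response, 7 were higher and 1 lower, led by HSPA5, the HSP70 of the endoplasmic reticulum (0.32), and 3 were higher in a fit of all 12 libraries. MT2A, a metallothionein, was higher by 0.53 in number 1 than in number 2, and numbers 3 and 4 stood above both with a mean of 9.62 rlog, against 9.03 in number 1 and 8.50 in number 2. Metallothioneins are a family of similar genes, so their separate values are uncertain.

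Hypoxia response genes were the list with the lowest median in number 1. Of 15 measured members, 10 were lower and 1 higher, with a median of -0.21, which was -0.16 in the sgRNA1 pair, -0.07 in the sgRNA2 pair and -0.30 in the control pair. BNIP3, a mitophagy receptor on chromosome 10 (131966455 to 131982013, minus strand), measured 9.44, 9.40 and 9.32 rlog in the sgRNA1, sgRNA2 and control libraries of number 1, against 9.89, 9.60 and 10.33 in those of number 2. The numbers did not overlap, and the difference was -0.55 (SE 0.052, adjusted p = 8.05e-16 in limma). AK4, an adenylate kinase of mitochondria, was lower by 0.51, NDRG1, a gene widely used as a sign of low oxygen, by 0.47, P4HA1, a collagen prolyl hydroxylase, by 0.31 and ADM, the peptide adrenomedullin, by 0.24. VEGFA, the vascular growth factor, did not pass (-0.0036). EGLN1, the oxygen sensor that marks the factors for degradation and is itself induced by them, was higher by 0.11, but 0 members were higher after quantile scaling, median centring or centring within bins of GC content, in a fit of all 12 libraries, or without either guide pair. In BNIP3, AK4, NDRG1 and P4HA1 the libraries of number 1 lay closer to each other than those of number 2, among which the control library stood highest. Without the control pair 6 members were lower, and in a fit of all 12 libraries 5.

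The core of the hypoxia response element, ACGTG, was present in 8 of 11 promoters found for these genes (72.7%), against 24.1% of all. Among the members that passed it was present in 5 of 8 (62.5%), which include EGLN1, the member higher in number 1. The stretches of the leading members BNIP3 (chr10:131982014-131982173, minus strand) and AK4 (chr1:65147302-65147548, plus strand) that GENCODE 29 places outside their exons are shown because both carry the motif as the palindrome CACGTG, where the matches on both strands overlap (capitals).
BNIP3: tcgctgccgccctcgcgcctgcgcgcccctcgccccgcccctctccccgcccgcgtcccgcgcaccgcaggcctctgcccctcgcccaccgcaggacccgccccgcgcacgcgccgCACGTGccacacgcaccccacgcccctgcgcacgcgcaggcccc
AK4: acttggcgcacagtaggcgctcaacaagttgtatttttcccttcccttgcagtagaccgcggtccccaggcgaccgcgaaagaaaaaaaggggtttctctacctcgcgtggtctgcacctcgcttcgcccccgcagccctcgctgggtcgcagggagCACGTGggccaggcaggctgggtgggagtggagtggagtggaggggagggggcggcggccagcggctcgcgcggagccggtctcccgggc
The motif began 133 bases before the RefSeq start in BNIP3 and 92 bases before it in AK4.

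Glycolytic genes gave a weaker picture. Of 22, 9 were lower and 1 higher in number 1, with a median of -0.07. The passing members with the largest differences were regulatory or tissue-specific enzymes. PFKFB4, which sets the activator of phosphofructokinase, measured 6.96, 6.98 and 6.99 rlog in number 1 for sgRNA1, sgRNA2 and control, against 7.48, 7.25 and 7.79 in number 2. PDK1, the kinase that closes pyruvate dehydrogenase, was lower by 0.46 and ENO2, an enolase, by 0.36. Of the main enzymes, GAPDH (0.01), PGK1 (-0.03) and ALDOA (-0.07) did not pass. LDHA, listed with the MYC targets, was lower by 0.14 (adjusted p = 0.021 in limma). Its differences were -0.14 in the sgRNA1 pair, -0.01 in the sgRNA2 pair and -0.26 in the control pair. ALDOC, another aldolase, went the other way (0.36), with 8.96, 9.08 and 8.78 rlog in number 1 and 8.49, 8.43 and 8.81 in number 2, so that its control libraries hardly differed. The count of lower members was 5 without the control pair or without the sgRNA2 pair and 3 in a fit of all 12 libraries.

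Targets of p53 were lower in number 1. Of 24 measured, 13 were lower and 0 higher, with a median of -0.14 that was alike in the sgRNA1 (-0.14), sgRNA2 (-0.16) and control (-0.18) pairs. CDKN1A, the p21 inhibitor of cyclin-dependent kinases (chromosome 6, 36676460 to 36687339, plus strand), measured 11.42, 11.52 and 11.27 rlog in number 1 and 11.77, 11.99 and 11.85 in number 2, without overlap (difference -0.47, SE 0.040, adjusted p = 1.83e-18 in limma). FDXR, a reductase of mitochondria, was lower by 0.39, TP53INP1 by 0.36, GADD45A, a DNA damage response protein, by 0.32, DDB2, a damage recognition factor, by 0.30, and MDM2, the ubiquitin ligase of p53, by 0.24. The pro-apoptotic targets divided: BAX was lower by 0.22, while BBC3 (-0.03) and PMAIP1 (0.12) did not pass. The number of lower targets was 10 to 12 when a pair was left out and 11 in a fit of all 12 libraries. TRIM22, listed with the interferon genes and known as a p53 target too, was lower by 0.36, whereas 10 of the 32 interferon-stimulated genes were higher and 2 lower. IFI16, a DNA sensor (0.31), OAS2 (0.24) and MX2 (0.24), both antiviral effectors, led the higher ones. The number of higher genes in this list was 5 without the sgRNA1 pair, 6 without the sgRNA2 pair, 6 in a fit of all 12 libraries and 5 after centring within bins of GC content.

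**Figure D2:**
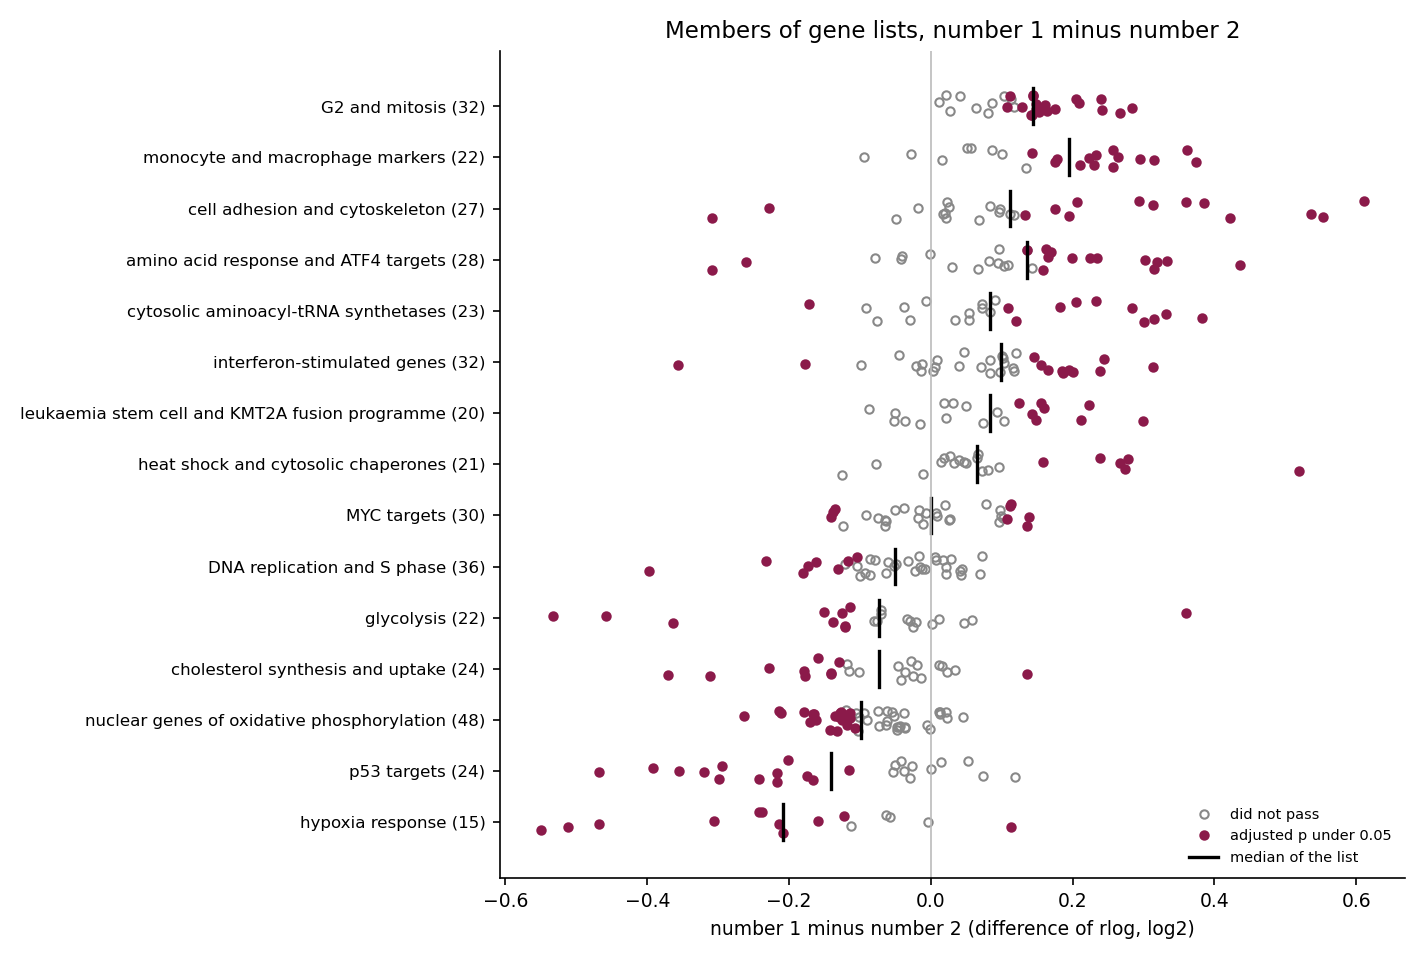
Each point is 1 gene of the list named at the left (measured members in brackets), placed by number 1 minus number 2 in rlog (log2), filled where the adjusted p was under 0.05, and the bar is the median of the list. The lists from G2 and mitosis to chaperones have positive medians, that of MYC targets is at 0.00, and those from S phase to the hypoxia response, whose median is -0.21, are negative.

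Of the 48 nuclear genes of oxidative phosphorylation measured, 0 were higher and 20 lower in number 1, with a median of -0.10. The differences were small and larger in the guide pairs, with a median of -0.13 in the sgRNA1 pair, -0.10 in the sgRNA2 pair and -0.01 in the control pair. COX6B1, a subunit of cytochrome oxidase, measured 11.05, 11.02 and 11.15 rlog in the sgRNA1, sgRNA2 and control libraries of number 1, against 11.31, 11.30 and 11.25 in those of number 2. COX6A1 of the same complex was lower by 0.26 and ATP5MC1, a ring subunit of ATP synthase, by 0.21. The number of lower members was 5 without the sgRNA1 pair, 6 without the sgRNA2 pair and 4 in a fit of all 12 libraries. Of the 13 genes encoded in mitochondria, 4 were lower and 0 higher, against 8, 1 and 0 lower without the control, sgRNA1 and sgRNA2 pairs and 0 in a fit of all 12 libraries. Their median was -0.09 (-0.01 after quantile scaling), and it was negative in the sgRNA1 (-0.14) and sgRNA2 (-0.16) pairs and positive in the control pair (0.04). MT-ND6 measured 13.06, 13.09 and 13.17 in number 1 and 13.28, 13.32 and 13.24 in number 2, so this gene was lower in number 1 in each pair.

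Sterol genes were lower, mainly in the control pair. Of 24 genes of cholesterol synthesis and uptake, 9 were lower and 1, ACAT2 (0.14), higher, with a median of -0.04 in the sgRNA1 pair, -0.02 in the sgRNA2 pair and -0.20 in the control pair. INSIG1, which retains the sterol sensor in the endoplasmic reticulum, measured 9.83, 9.96 and 9.92 rlog in number 1 and 10.06, 10.05 and 10.53 in number 2. STARD4, a sterol carrier, was lower by 0.37. Without the control pair 3 were lower, and in a fit of all 12 libraries 4. FADS2, a fatty acid desaturase, was higher by 0.36 in number 1, while FASN, the fatty acid synthase, was lower by 0.12. Their list went both ways: of 15 genes of fatty acid synthesis and desaturation, 3 were higher and 2 lower, with a median of 0.026.

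The remaining leading genes that were lower in number 1 belonged to no list. TBC1D30, which has the domain of a GTPase-activating protein for Rab proteins (chromosome 12, 64780516 to 64881032, plus strand), measured 9.44, 9.46 and 9.12 rlog in the sgRNA1, sgRNA2 and control libraries of number 1, against 10.04, 9.76 and 10.67 in number 2. CYFIP2, a part of the WAVE complex that nucleates actin, measured 6.42, 6.51 and 6.23 in number 1 and 7.00, 7.32 and 7.09 in number 2. The levels of SLC23A2, a transporter of vitamin C, were 9.16, 9.18 and 9.16 in number 1 and 9.71, 9.64 and 9.67 in number 2. In all 3 genes numbers 1 and 2 did not overlap, which the choice of genes by their difference favors. SERINC2 (-0.57), HAL, histidine ammonia-lyase (-0.53), JAG2, a Notch ligand (-0.45), BASP1 (-0.47), PPFIA4 (-0.44) and ZNF395 (-0.50) followed.

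Transcripts close to the subject of the study differed by small amounts and in both directions. Over all genes tested, 11.5% were higher and 9.02% lower in number 1. MYC differed by 0.05 and did not pass (adjusted p = 0.42 in limma), with 13.09, 13.05 and 13.02 rlog in number 1 and 13.05, 13.01 and 12.96 in number 2. Of 30 MYC targets, 5 were higher and 3 lower, with a median of 0.00, and the counts were 3 and 5, 3 and 0, and 1 and 1 without the control, sgRNA1 and sgRNA2 pairs and 0 and 0 in a fit of all 12 libraries. Of 39 translation initiation factors, 5 were higher and 6 lower, against 3 and 8, 7 and 3, and 2 and 3 with the same pairs left out and 2 and 2 in a fit of all 12 libraries. EIF4B, a helicase cofactor, did not pass (-0.07, adjusted p = 0.20), and EIF3L, a subunit of eIF3, was lower by 0.20 (adjusted p = 3.01e-05). YBX1 was lower by 0.12 in number 1 (SE 0.040, adjusted p = 0.017), by 0.18, 0.14 and 0.05 in the sgRNA1, sgRNA2 and control pairs, and it no longer passed without either guide pair. In bulk RNA, fewer cells of a kind and less RNA per cell cannot be told apart, and this holds for every list above.

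The levels of the lists in numbers 3 and 4 were set beside these differences, in comparisons that were added after the data had been seen and that share the libraries of numbers 3 and 4. Number 1 differed from numbers 3 and 4 in 5163 genes (47.0%, limma), of which 3002 (27.3%) were higher and 2161 (19.7%) lower, and number 2 in 4582 (41.7%), of which 2477 (22.6%) were higher and 2105 (19.2%) lower. For hypoxia genes the order was number 1, number 2, then numbers 3 and 4: 14 of 15 members were lower in number 1 than in numbers 3 and 4, with a median of -0.66, and 13 of 15 were lower in number 2, with a median of -0.45. BNIP3 averaged 10.65 rlog in numbers 3 and 4. For p53 targets number 2 stood apart. In number 2, 16 of 24 were higher and 2 lower than in numbers 3 and 4, with a median of 0.20, and in number 1, 10 were higher and 5 lower, with a median of 0.04. CDKN1A, at 11.50 rlog in numbers 3 and 4, did not pass in number 1 (-0.10, adjusted p = 0.067) and was higher by 0.37 in number 2. For mitotic genes number 1 was farthest from numbers 3 and 4: 28 of 32 were higher in number 1, with a median of 0.30, and 17 in number 2, with a median of 0.11. For ATF4 targets 18 of 28 were higher and 4 lower in number 1, with a median of 0.22, and 10 were higher and 5 lower in number 2, with a median of 0.06. Without the sgRNA2 library of number 3, the medians for number 1 were -0.64 for hypoxia genes, 0.029 for p53 targets, 0.29 for mitotic genes and 0.23 for ATF4 targets, and those for number 2 were -0.44, 0.20, 0.11 and 0.058 in the same order. Over all 1260 genes higher in number 1 than in number 2, the mean of numbers 3 and 4 lay beyond number 1 in 236, between the numbers in 480 and beyond number 2 in 544. Over the 991 lower genes it lay beyond number 1 in 248, between in 419 and beyond number 2 in 324.

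**Figure D3:**
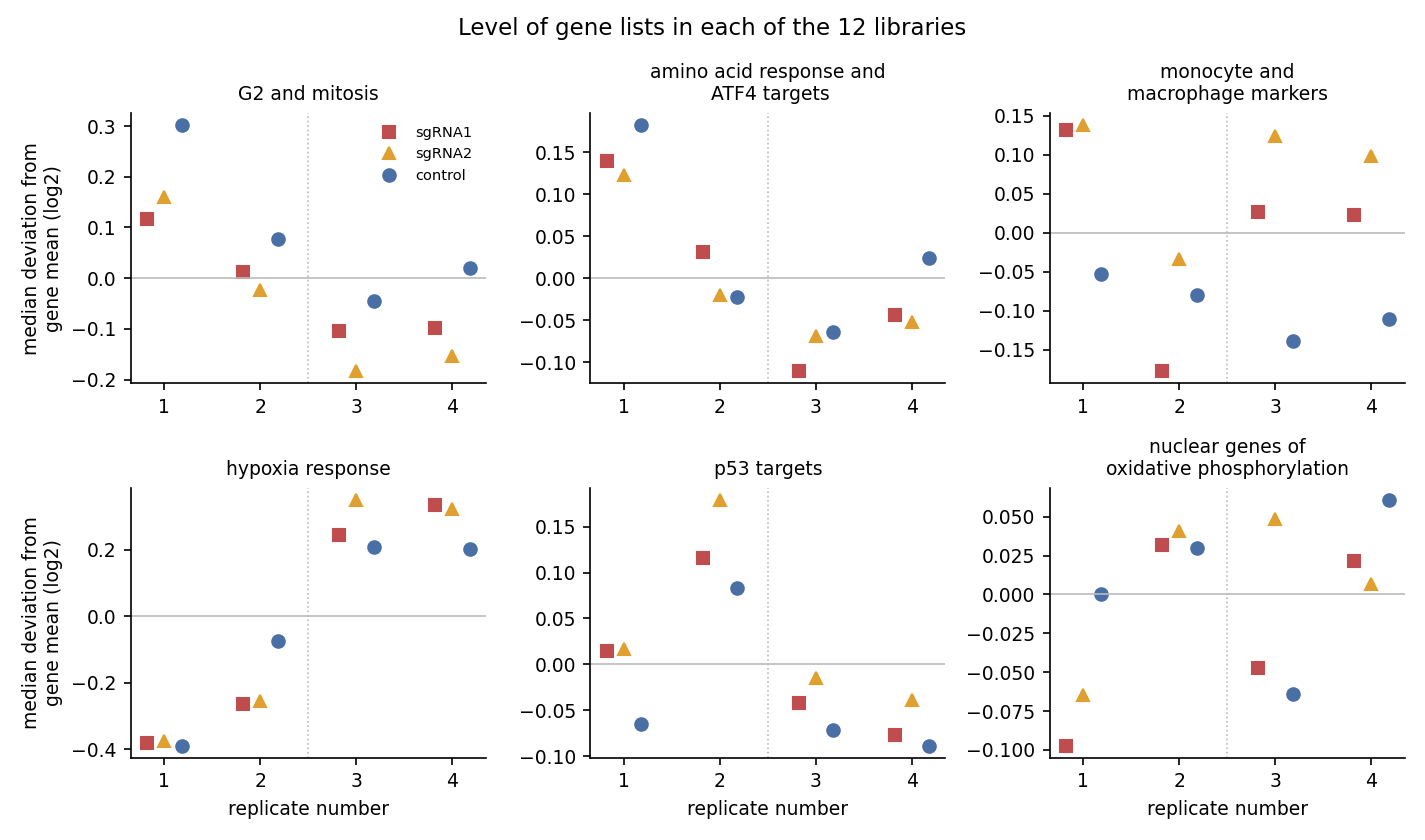
For 6 gene lists, the median over members of each library's deviation from the gene's mean over 12 libraries (log2) is plotted by replicate number, with sgRNA1 as squares, sgRNA2 as triangles and control as circles. The 3 number 1 libraries lie above the 3 number 2 libraries for G2 and mitosis and for ATF4 targets and below them for the hypoxia response and p53 targets, and the number 2 control library stands above the guide libraries of its number for the hypoxia response (-0.07 against -0.26 with either guide).

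The difference between the numbers was tested for whether it was the same in guide and control libraries, as the effect of the guides in number 1 minus that in number 2. In 7 genes (0.0637%, limma over all 12 libraries, 475 at an unadjusted p below 0.05) it was not, and all 7 had a positive value. In TBC1D30 the guide libraries exceeded control by 0.33 in number 1 and were 0.77 below it in number 2 (difference of effects 1.11, SE 0.118, adjusted p = 1.43e-06). BNIP3 gave 0.10 in number 1 and -0.58 in number 2, P4HA1 0.00 and -0.54, and PDK1 0.14 and -0.38, so that in these hypoxia or glycolysis genes the control library of number 2 stood above its guide libraries. ALDOC gave 0.24 in number 1 and -0.35 in number 2. FGL2 gave 0.44 and -0.09, and CD209, a lectin of macrophages and dendritic cells that was named after its values were seen, gave 0.38 and -0.25. The count was 0 without the filter on low values (789 at an unadjusted p below 0.05 in limma), 1 after quantile scaling, which left TBC1D30, 65 with the 6 libraries of numbers 1 and 2 alone and 64 without sgRNA2 replicate 3.

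**Figure D4:**
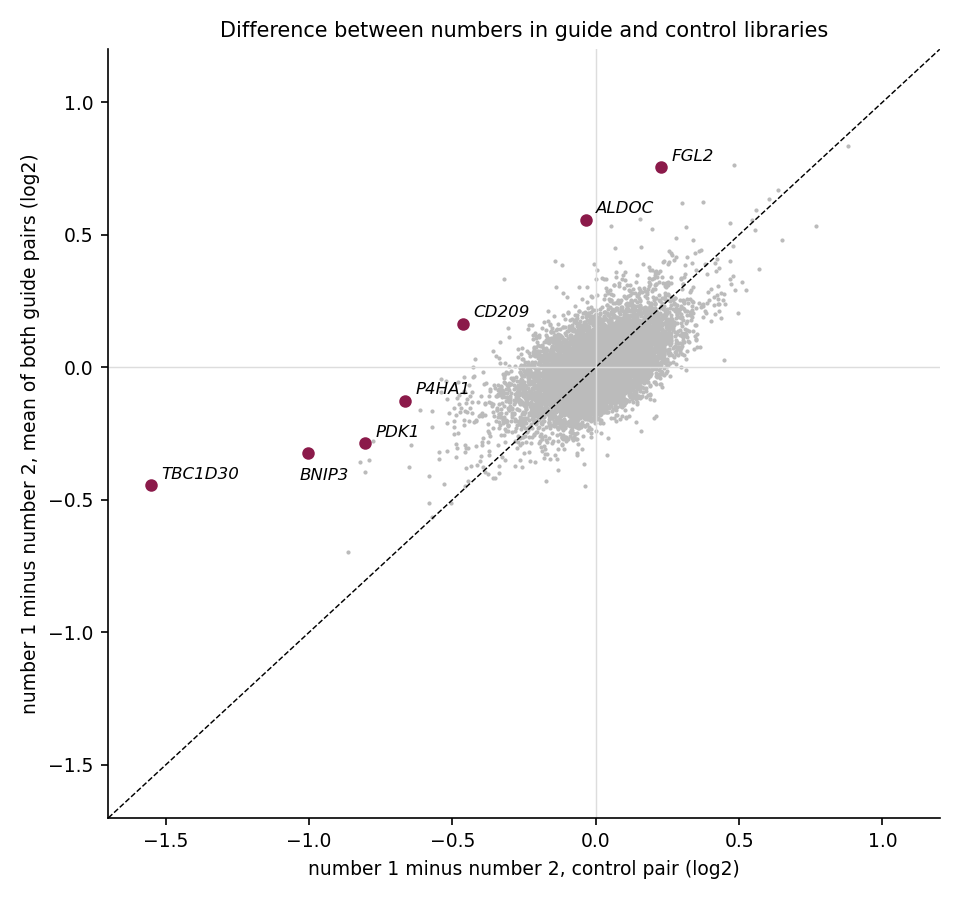
Each point is 1 of the 10982 genes, with number 1 minus number 2 in the control pair on the horizontal axis and the mean of the sgRNA1 and sgRNA2 pairs on the vertical axis (both log2), and the dashed line marks equal differences. The 7 labeled genes, in which the guide effect differed between numbers, lie above the line, and TBC1D30 and BNIP3 are the farthest to the left, with TBC1D30 at -1.55 in the control pair.

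The question of the study, guides against control, was asked within the same 6 libraries. Without a term for the number 1 gene passed (0.00911%, limma, 1237 at an unadjusted p below 0.05): FBXO33, which encodes an F-box protein, was lower in the guide libraries by 0.56 (SE 0.062, adjusted p = 0.032). With the replicate number as a block 949 genes (8.64%) passed, 445 (4.05%) higher and 504 (4.59%) lower with the guides. Of the 949, 310 also differed between numbers 1 and 2, as did 20.5% of all genes tested. Both fits used the same 6 libraries, so genes of small spread can pass in both, and this overlap was not tested. FBXO33 measured 7.08 and 7.19 rlog with sgRNA1 and sgRNA2 against 7.74 in control in number 1, and 7.14 and 7.25 against 7.70 in number 2. YBX1, the targeted gene, differed by -1.29 between guide and control libraries, with an adjusted p of 0.115 without the block and 2.04e-08 with it. Without sgRNA2 replicate 2, 3 genes passed, and without any other of the 6 libraries 0 (784 to 1611 at an unadjusted p below 0.05).

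Numbers 3 and 4, analyzed in the same way, differed in 154 genes (1.40%, limma), 152 (1.38%) higher and 2 (0.0182%) lower in number 3, with the sgRNA2 library of number 3 not following its number. DNAJC3, a co-chaperone of the endoplasmic reticulum, measured 10.17, 9.72 and 10.16 rlog in the sgRNA1, sgRNA2 and control libraries of number 3 and 9.82, 9.72 and 9.70 in those of number 4. The count of differing genes was 452 without the sgRNA2 pair and 0 without the sgRNA1 pair (206 at an unadjusted p below 0.05) or the control pair (441). The difference between numbers 1 and 2 followed base composition to some degree. Across genes, which are not independent replicates, its Spearman correlation with transcript GC content was -0.19, being -0.01 in the sgRNA1 pair, -0.37 in the sgRNA2 pair and -0.08 in the control pair. With the genes in 4 equal groups by GC content, the median difference was 0.039 in the group with the lowest content and -0.01 in that with the highest. With transcript length the correlation was -0.11, and it was -0.24 in the control pair. The part of GC content and length in the gene differences was not tested beyond centring within bins of GC content, after which 2122 genes passed. By chromosome the median difference lay between -0.01 on chromosome 19 and 0.026 on chromosome 13, outside the mitochondrial genome.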

How the data were processed

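MOLM13 RNA was poly(A)-selected and sequenced as 37 bp paired ends. Per the labels, whose processing notes give no order of steps, the authors used GRCh38 with HTSeq 0.6.1pl, STAR 2.7.5a, DESeq2, bcl2fastq 2.20.0.422, SAMtools and Picard 2.9.4. The authors deposited rlog values, log2 levels scaled by size factors and shrunken for low counts, which understates differences of weakly expressed genes. Whether the transformation was blind to groups, and whether counting used strand, is not given in the sources used here, so overlapping and antisense genes cannot be told apart. Deposited fold changes and p-values of the authors' own comparisons, and scores scaled per gene, were not used. Read counts were not analyzed here, and the depth is unknown.

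Of 19755 genes, 3669 had 1 value in all libraries, 56 had a missing or date-like symbol and 44 shared a symbol. GENCODE 29 gave coordinates, transcript length and GC content, with 99.9% of identifiers matched when the version was dropped. Genes with a mean rlog of at least 4 were tested in limma 3.58.1 (R 4.3.3, lmFit, eBayes with trend, two-sided, Benjamini-Hochberg over all genes, threshold 0.05), with guide group as the pairing term. The prior degrees of freedom were 112 against 2 residual ones. The script was tested on simulated data. Tables and figures used Python 3.11.15 with scipy 1.17.1 and matplotlib 3.10.9, and promoters came from RefSeq (GRCh38.p14).

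Members and lists were chosen with earlier results of these data known, so they are described by counts and medians without a list test. Named were the 15 genes with the largest difference in each direction among those that passed and agreed in 3 pairs, up to 4 passing members of each list (or 2 where none passed), YBX1, MYC, EIF4B, EIF3L and the 5 smallest p-values of both guide comparisons. Other list members and CD209 were named after their values were seen. The replicate numbers were treated as pairing libraries, since the differences between numbers 1 and 2 correlated over genes at 0.503 (sgRNA1 and control), 0.55 (sgRNA2 and control) and 0.595 (sgRNA1 and sgRNA2). This choice came from the same values that were then tested, so the correlations are no separate evidence for it. For numbers 3 and 4 they were 0.457, -0.216 and -0.0172 in the same order. Alternatives were quantile scaling, median centring, filters, a robust spread, left-out pairs or libraries, unpaired and 12-library fits and, chosen after seeing the data, centring within GC bins, each gene's own spread and the comparisons with numbers 3 and 4. Some items are not reported here.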

Additional observations from a re-analysis of the deposited data

Results flagged for a closer look

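In 7 genes the effect of the guides (mean of sgRNA1 and sgRNA2 minus control) differed between number 1 and number 2 (limma with a guide by number term over 12 libraries, adjusted p below the threshold). The values of number 1 minus number 2 were 1.11 for TBC1D30 (SE 0.118, adjusted p = 1.43e-06), 0.681 for BNIP3 (SE 0.115, adjusted p = 0.00766), 0.539 for P4HA1 (SE 0.107), 0.521 for PDK1 (SE 0.106), 0.592 for ALDOC (SE 0.121), 0.627 for CD209 (SE 0.128) and 0.527 for FGL2 (SE 0.107), the last 5 with an adjusted p of 0.0435 each. Each effect rests on 1 control library per number. The spread of the 6 libraries of numbers 3 and 4 entered this fit.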

How the results depend on the processing

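Of 161 named genes that differed between numbers 1 and 2, 0 reversed under any alternative. Calls were lost for 8 with quantile scaling, 5 with median centring, 15 with centring within GC bins, 4 with a robust spread, 26 without a filter, 18, 28 and 48 without the control, sgRNA1 and sgRNA2 pairs, 54 without pairing, 45 in a fit of all 12 libraries and 161 with each gene's own spread. The count of 2251 genes was 1526 to 2341 under the scalings, filters and robust spread, 1048 to 1802 with a pair left out, 729 without pairing, 903 with all 12 libraries and 0 with own spread (limma, 1827 at an unadjusted p below 0.05). A total of 664 genes passed in the full comparison and in all 3 that left out a pair.

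The pairing by replicate number mattered most for guides against control: the replicate block gave 949 genes in place of 1. Without the block, quantile scaling gave 0 (1242 unadjusted), no filter 0 (1422 unadjusted) and leaving out a library 0 to 3. For number 3 against number 4, with 154 genes, quantile scaling gave 54, no filter 0 (961 unadjusted), no pairing 0 (536 unadjusted), all 12 libraries 0 (1155 unadjusted) and leaving out a pair 0 to 452. For the guide effect in number 1 against number 2, with 7 genes, quantile scaling gave 1, no filter 0 (789 unadjusted), the 6 libraries alone 65 and the fit without sgRNA2 replicate 3 64. The causes were not tested. The comparisons with numbers 3 and 4 stayed within 1.5 times their counts under quantile scaling and without sgRNA2 replicate 3. With 3 pairs, unknown depth and shrunken values, small differences of weakly expressed genes are the least certain.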

Other observations

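Of 34 genes of ribosome biogenesis, 7 were higher and 1 lower in number 1, with a median of 0.048 (0.016 after centring within bins of GC content), led by DDX10, an RNA helicase (0.24), and the lower one was FBL, the methyltransferase fibrillarin (-0.14). Of 31 proteasome subunits, 5 were higher and 0 lower, with a median of 0.047. Beside the counts of this paragraph, 11.5% of all genes tested were higher and 9.02% lower, with a median of 0.012. Of 23 growth factor and cytokine receptors, 6 were higher and 6 lower: IL7R (0.51) and CSF1R (0.37) led the higher ones, and CCR2, a chemokine receptor (-0.26), and TNFRSF1B, a TNF receptor (-0.24), the lower ones. Without the control, sgRNA1 and sgRNA2 pairs, the higher genes numbered 3, 4 and 3 for ribosome biogenesis, 3, 5 and 1 for the proteasome and 6, 4 and 4 for the receptors. The lower genes numbered 2, 0 and 0 for ribosome biogenesis, 2, 0 and 0 for the proteasome and 5, 4 and 3 for the receptors with the same pairs left out. A fit of all 12 libraries gave 2 higher and 0 lower for ribosome biogenesis, 1 and 0 for the proteasome, and 3 and 2 for the receptors. Among targets of NRF2, the regulator of the oxidative stress response, 5 of 17 were higher and 1 lower. HMOX1, heme oxygenase 1, was higher by 0.33, GCLM, which takes part in glutathione synthesis, by 0.28, and NQO1, a quinone reductase, by 0.28. Of 19 immediate early genes 3 were higher and 3 lower, among them KLF4, higher by 0.23, and EGR1, lower by 0.40. These counts were 3 and 1, 1 and 3, and 1 and 1 without the control, sgRNA1 and sgRNA2 pairs, and 1 and 1 with all 12 libraries.

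Against numbers 3 and 4, the genes encoded in mitochondria were higher in both numbers, 12 of 13 in number 1 (median 0.28) and 12 of 13 in number 2 (median 0.31). Over all genes tested, 27.3% were higher and 19.7% lower in number 1 than in numbers 3 and 4 (median 0.019). In number 2 these shares were 22.6% and 19.2% (median 0.01), and they are the background for this paragraph. Numbers 3 and 4 were not uniform in these genes. MT-ATP8, whose reading frame overlaps that of MT-ATP6, measured 11.12 to 11.22 rlog in number 1 and 11.18 to 11.56 in number 2, against 11.11, 10.08 and 10.90 in the sgRNA1, sgRNA2 and control libraries of number 3 and 9.83, 10.12 and 9.98 in those of number 4. In MT-ND5 number 1 (15.09 to 15.16) spanned the sgRNA1 library of number 3 (15.12). Without the sgRNA2 library of number 3, 13 of 13 genes were higher in number 1 (median 0.24) and 13 of 13 in number 2 (median 0.32). Of 23 genes of the unfolded protein response, 18 were higher and 1 lower in number 1 (median 0.23), and 17 were higher and 2 lower in number 2 (median 0.19).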
